A study of Arabidopsis thaliana with 50 samples.

Results

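The 10 genes described here encode chaperones of the endoplasmic reticulum (ER) of Arabidopsis thaliana and the proteins that work directly with them. They were chosen by gene identifier, with earlier results of these data known. They are BIP1 (AT5G28540), BIP2 (AT5G42020), BIP3 (AT1G09080), CRT1 (AT1G56340), CRT2 (AT1G09210), CRT3 (AT1G08450), CNX1 (AT5G61790), SDF2 (AT2G25110), ERDJ3A (AT3G08970) and ERDJ3B (AT3G62600). All 10 are among the 18231 genes in the authors' deposited table. RNA was sequenced from rosette leaves of 7-week-old plants grown with 8 h of light per day. The lines were pp2a-b’γ, which is mutated in the regulatory subunit B’γ of protein phosphatase 2A; pp2a-b’γζ, which is mutated in the B’ζ subunit as well; pp2a-b’γ sid2, which also carries sid2, a lesion in ICS1, the gene of an enzyme that makes salicylic acid; pp2a-b´γ P35S:PP2A-B’γ, called the complementation line here, in which a constitutive viral promoter drives B’γ in the pp2a-b’γ background; and the wild type (WT), ecotype Col-0. All lines other than WT thus carry the pp2a-b’γ mutation. Leaves were cut into an apical and a basal part. With 5 lines and 2 leaf parts there were 10 groups, and each had 5 pools, every pool made from 7 leaves, which gives 25 apical and 25 basal libraries. The apical and basal pools with the same number came from the same leaves. By the labels, pp2a-b’γ leaves showed yellowing and dying tissue in their apical parts only.

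Proteins that enter the secretory pathway fold in the ER. BiP, an HSP70 of the ER lumen, binds unfolded stretches in a cycle driven by ATP, and J-domain proteins such as ERDJ3A and ERDJ3B deliver its clients and stimulate that cycle. Calreticulins and calnexin hold glycoproteins by their sugars until they are folded. When unfolded proteins build up, the sensors IRE1 and bZIP28 start the unfolded protein response, which raises the transcripts of these chaperones. In Arabidopsis, CRT3, SDF2 and ERDJ3B are known for helping the immune receptor EFR to mature, and BIP2 and other secretory genes are known to be raised during salicylic acid defence, through NPR1 and the factor TBF1.

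Each value is the log2 fold change that the authors deposited for the apical part of a line against apical WT, so all levels are relative to WT. The table also gives the authors' p-values per gene for line (genotype), leaf part (tissue) and their interaction, over all lines together. No value of a single library was used, so there is no SD over pools, and sequencing depth is unknown. Errors were therefore bounded from the deposited p-values: for each gene they set the largest residual variance that the 4 fold changes allow. Intervals given below are 95% intervals under that largest error. A gene is said to have risen or fallen where its value was at least 2-fold from its comparator and the contrast passed at an adjusted p under 0.05 with that largest error (Benjamini-Hochberg over the 25801 genes the authors tested); this is called the largest-error test. Each contrast sets 5 pools against 5, with an error that rests on all 50 libraries; an exact permutation test needs values per library and could not be run. In this table of whole leaf pools, a change in the share of a cell type and a change per cell cannot be told apart. Of 8 listed leaf cell type markers, 3 were at least 2-fold lower in pp2a-b’γ, with values of -1.85 for the antenna gene LHCB1.3, -1.37 for the carbonic anhydrase gene CA1 and -1.53 for the myrosin cell gene TGG1 and all 3 without passing. The guard cell channel gene KAT1 rose by 1.38 on the log2 scale, the only 1 of the 8 markers that rose. A second marker of the guard cell lineage stood at 0.27 without passing. Above 0 were 2 of the 8 markers, and their median was -0.67. Their part in the results was not tested. The disrupted B’ζ transcript fell by 2.59 in pp2a-b’γζ, and the 3 lines without the transgene had B’γ values of -0.69 in pp2a-b’γ, -0.46 in pp2a-b’γζ and -0.72 in pp2a-b’γ sid2, against 0.35 in the complementation line.

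The promoter sequence of 3 of the genes is shown first, since these genes differ in the elements through which chaperone genes are known to be switched on. BIP3 is the gene with the largest change, CRT1 is the gene with the smallest one and the only one with a complete 8-letter unfolded protein response element (UPRE), and BIP2 holds the 9-letter core of TL1, the element bound by TBF1. The windows end at the base before the RefSeq gene start in TAIR10.1, and all 3 genes lie on the minus strand. The BIP3 window is the 300 bases of chr1:2931851-2932150, and the CRT1 and BIP2 windows are the nearest 120 bases, chr1:21092710-21092829 and chr5:16810694-16810813. Capitals mark CACGT on either strand in BIP3 and CRT1, the UPRE in CRT1 and the TL1 core in BIP2.
BIP3: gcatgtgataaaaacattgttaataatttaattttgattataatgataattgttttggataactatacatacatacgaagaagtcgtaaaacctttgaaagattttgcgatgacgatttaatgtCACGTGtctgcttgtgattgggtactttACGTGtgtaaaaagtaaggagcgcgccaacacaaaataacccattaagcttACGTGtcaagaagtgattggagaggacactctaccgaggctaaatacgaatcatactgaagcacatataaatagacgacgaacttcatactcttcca
CRT1: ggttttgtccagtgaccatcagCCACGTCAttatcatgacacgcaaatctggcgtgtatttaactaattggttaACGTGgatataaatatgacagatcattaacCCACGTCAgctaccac
BIP2: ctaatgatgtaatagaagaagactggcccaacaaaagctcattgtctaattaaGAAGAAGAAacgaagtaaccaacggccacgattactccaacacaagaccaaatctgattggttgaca

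Motifs were searched by letter on both strands in the 300 bases before the start of every protein-coding gene. The UPRE, TGACGTGG, occurred in CRT1 only among the 10 genes, at bases -98 to -91 and -16 to -9, and both matches read CCACGTCA in the direction of the gene. It was present in 1.33% of the 27443 protein-coding promoters. CACGT, the core of the elements that bZIP factors bind and part of the UPRE, was present in BIP3, CRT1, CRT2, CNX1, SDF2 and ERDJ3A, which is 60.0% of the 10, against 56.5% of the 46 listed genes on 5 other ER lists, 33.0% of the listed genes at least 2-fold higher in pp2a-b’γ and 25.6% of all promoters. In BIP3 it begins at bases -176, -148 and -97, and the match at -176 is the palindrome CACGTG, which also matches on the other strand. The TL1 core, GAAGAAGAA, occurred in BIP2 at bases -67 to -59 and in CNX1 at bases -190 to -182, and in 4.96% of all promoters. On the 5 other ER lists its share was 2.17%. Longer composite elements were searched in 1 spelling each. ERSE-I was spelled as CCAAT and CCACG on either side of 10 bases, ERSE-II as ATTGG and CCACG on either side of 1 base. UPRE-II was GATGA followed at once by CGCGT. In these spellings they were in 0 of the 10 windows and in 0.0255%, 0.0656% and 0.0255% of all promoters. A shorter ERSE-I spelling, with CACG for CCACG, was not searched. On the other strand, the printed BIP3 and CRT1 windows do read CCAAT, 10 bases and CACG. There CCAAT lies at bases -160 to -156 and -82 to -78 in BIP3 and -54 to -50 in CRT1. Absence of ERSE-I thus holds for the searched letters only. BIP1, CRT3 and ERDJ3B held none of the UPRE, TL1 core or CACGT letters. The windows of ERDJ3A (all of it), CNX1 (from base -87 outward), CRT3 (from base -241) and CRT1 (from base -284) overlap a neighbouring gene.

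**Figure D1:**
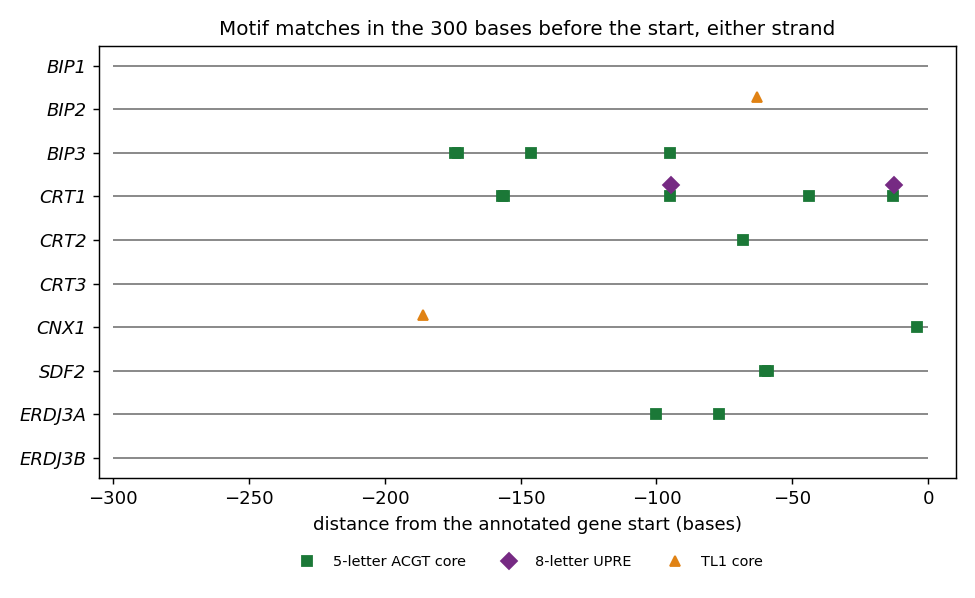
Matches of CACGT (squares), the UPRE (diamonds) and the TL1 core (triangles) by distance in bases from the annotated start of each of the 10 genes. CACGT is in 6 of the 10 rows, CRT1 alone carries diamonds, at -98 to -91 and -16 to -9, and BIP2 and CNX1 carry a triangle.

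The first comparison asked how the chaperone transcripts stood in the yellowing apical parts of pp2a-b’γ relative to the apical parts of WT. All 10 genes were at least 2-fold higher in pp2a-b’γ, where 17.0% of listed genes were, and 9 of them rose, where 7.92% of listed genes did. Their median log2 fold change was 1.64, and that of all listed genes was 0.02. The exception was CRT1, which had a value of 1.03 (interval 0.27 to 1.80) and an adjusted p of 0.056 in the largest-error test.

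BIP3, the BiP gene known in Arabidopsis for strong induction by ER stress, rose the most, by 3.71 (interval 2.14 to 5.29). The general BiP genes rose less, BIP1 by 1.42 (0.59 to 2.25) and BIP2 by 1.84 (0.77 to 2.92). The interval of BIP3 overlaps both of theirs, and its residual SD was also the largest of the 10, between 1.0 and 1.23 log2 units. The coding sequences of BIP1 and BIP2 are 97.3% identical and share 32.0% of the 50-base windows of BIP1, so reads may have been divided between them in counting and their separate values are uncertain. BIP3 shares no 50-base window with either and is 76.3% and 75.8% identical to them.

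Among the lectin chaperones, CRT3, the plant-specific calreticulin known for its role with EFR, rose by 2.45 (interval 1.61 to 3.30), with the smallest adjusted p of the 10, 3.06e-05 in the largest-error test. The general calreticulin CRT2 rose by 1.59 (0.76 to 2.42) and calnexin CNX1, its membrane-bound relative, by 1.54 (0.71 to 2.36). CRT1, which is 84.4% identical to CRT2 in coding sequence and shares 3 windows of 50 bases with it, had the value of 1.03 given above. Among the BiP cofactors, the J-domain protein gene ERDJ3A rose by 2.29 (1.27 to 3.32), ERDJ3B by 1.68 (0.84 to 2.52) and SDF2, whose protein forms a complex with ERDJ3B and BiP in Arabidopsis, by 1.32 (0.58 to 2.06). BIP3, CRT3 and ERDJ3A thus had the 3 largest values, above 2, and the other 7 lay between 1.03 and 1.84.

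In pp2a-b’γζ the same genes stood near WT. Values were 0.22 for BIP1, 0.29 for BIP2, 0.29 for BIP3, -0.19 for CRT1, -0.08 for CRT2, 0.55 for CRT3, 0.07 for CNX1, -0.11 for SDF2, 0.90 for ERDJ3A and -0.09 for ERDJ3B. None of the 10 was 2-fold higher, where 4.69% of listed genes were, and none rose by the largest-error test, where 1.17% did. The median was 0.14. ERDJ3A was the highest. Above WT were 6 of the 10, where 8685 of the 18231 listed genes were, so this count is near that of all listed genes. The value of CRT2, just below WT, came to 0.0047 when centred on reference genes. All 10 unadjusted intervals included 0; that of ERDJ3A was -0.12 to 1.93 and the widest, of BIP3, was -1.29 to 1.87, so a 2-fold difference from WT lies within several of them.

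In pp2a-b’γ sid2 all 10 genes were above WT, where 9438 of the 18231 listed genes were, and their median was 1.21. At least 2-fold higher were 6 of them, where 6.55% of listed genes were: BIP3 at 2.33, ERDJ3A at 1.74, BIP2 at 1.47, CRT3 at 1.24, BIP1 at 1.23 and CNX1 at 1.18. ERDJ3A rose (interval 0.71 to 2.77), where 2.51% of listed genes did. The adjusted p of the other 5 lay between 0.0593 for BIP1 and 0.0959 for BIP2 in the same test, and all 5 of their intervals lay above 0. CRT2 stood at 0.92, ERDJ3B at 0.83, SDF2 at 0.72 and CRT1 at 0.44. The count was sensitive to the error assumed: with basal line differences as large as the apical ones, all 6 passed.

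In the complementation line 0 of the 10 genes were 2-fold higher, where 2.63% of listed genes were, and 0 rose, where 0.285% did. Values ran from 0.01 for CRT1 through 0.10 for SDF2, 0.18 for ERDJ3B, 0.20 for CRT2, 0.36 for BIP3, 0.40 for CNX1, 0.48 for BIP1, 0.53 for BIP2 and 0.73 for ERDJ3A to 0.82 for CRT3. The median was 0.38 and all 10 were above 0, where 9007 of the 18231 listed genes were. All 10 unadjusted intervals included 0, and that of CRT3 was -0.02 to 1.67. None of the 10 genes was 2-fold lower than WT in any line, where 16.2% of listed genes were in pp2a-b’γ, 2.92% in pp2a-b’γζ, 5.56% in pp2a-b’γ sid2 and 2.22% in the complementation line.

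**Figure D2:**
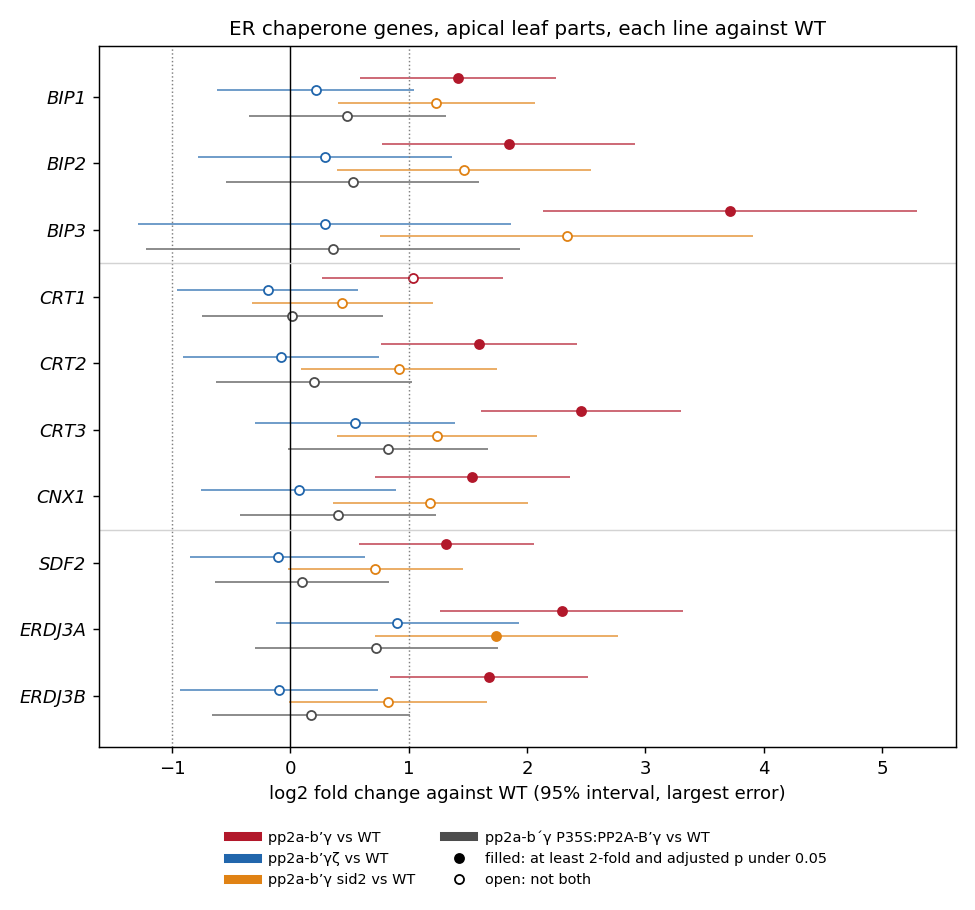
Deposited log2 fold change of the 10 genes against WT in apical parts (x axis), by gene (rows) and line (colours), with bars for the 95% interval under the largest error and dotted lines at 2-fold. In pp2a-b’γ 9 points are filled, and in pp2a-b’γ sid2 the point of ERDJ3A is the filled one, at 1.74.

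The order of the lines was alike in the 10 genes. Transcripts were highest in pp2a-b’γ for 10 of 10 genes and next highest in pp2a-b’γ sid2 for 10 of 10. The complementation line ranked 3 among the 4 lines for 9 genes and pp2a-b’γζ ranked 4 for 9; in ERDJ3A these places were exchanged, at 0.73 in the complementation line and 0.90 in pp2a-b’γζ. The order is a description: the 10 genes share the same pools and are not separate replicates of it. How many listed genes have the same order was not counted, so it cannot be called particular to these genes. With WT placed among them, few neighbours in the order differed beyond the unadjusted 95% interval: pp2a-b’γ and pp2a-b’γ sid2 did for 2 of 10 genes, CRT3 and ERDJ3B, and pp2a-b’γ sid2 and the complementation line for 1 of the 9 genes in which they were neighbours, BIP3. The complementation line, pp2a-b’γζ and WT were never apart from their neighbour below by more than that interval.

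The next comparisons asked what each added mutation or the transgene did relative to pp2a-b’γ itself. These differences of deposited values share the pp2a-b’γ pools. In pp2a-b’γζ all 10 genes were at least 2-fold lower than in pp2a-b’γ, where 14.5% of listed genes were, and 9 fell, where 6.20% did. BIP3 fell by 3.42 on the log2 scale (interval -5.0 to -1.85), CRT3 by 1.91, ERDJ3B by 1.77, CRT2 by 1.67, BIP2 by 1.55, CNX1 by 1.46, SDF2 by 1.42, CRT1 by 1.22 and BIP1 by 1.20. ERDJ3A, at -1.39, had an adjusted p of 0.0653 in the largest-error test and did not pass. BIP1 and BIP2 passed narrowly, with adjusted p-values of 0.0457 and 0.0458, and did not pass after the fold changes were centred on the median of all listed genes.

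In the complementation line 9 genes were at least 2-fold lower than in pp2a-b’γ, where 15.1% of listed genes were, and 6 fell, where 6.67% did. BIP3 fell by 3.35, CRT3 by 1.63, ERDJ3A by 1.57, ERDJ3B by 1.5, CRT2 by 1.39 and SDF2 by 1.22. BIP2 at -1.32, CNX1 at -1.13, CRT1 at -1.02 and BIP1 at -0.93 did not pass, with adjusted p-values between 0.0595 and 0.147 in the largest-error test. Centring on reference genes ended the calls of SDF2, at -0.98, and ERDJ3A, at -1.33. B’γ itself stood 1.04 higher in the complementation line than in pp2a-b’γ.

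The double mutant pp2a-b’γ sid2 had a median difference from pp2a-b’γ of -0.60 over the 10 genes, where pp2a-b’γζ had -1.51 and the complementation line -1.35. CRT3 was the 1 gene that fell, by 1.21 (interval -2.06 to -0.37), where 7.49% of listed genes did, and BIP3 was at least 2-fold lower at -1.38 without passing (interval -2.96 to 0.20). At least 2-fold lower were 2 of the 10, where 15.8% of listed genes were. The remaining values were -0.86 for ERDJ3B, -0.67 for CRT2, -0.60 for SDF2, -0.59 for CRT1, -0.55 for ERDJ3A, -0.38 for BIP2, -0.35 for CNX1 and -0.18 for BIP1. All 10 were below 0, though BIP1 came to 0.03 when centred on reference genes. Of the 18231 listed genes, 8858 were above 0, and the median of all listed genes was -0.03. The interval of BIP1 was -1.02 to 0.65 and that of BIP2 -1.45 to 0.69, so a 2-fold decline lies within both. The fall of CRT3 did not hold after centring on reference genes, where its difference was -1.0 and did not pass.

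**Figure D3:**
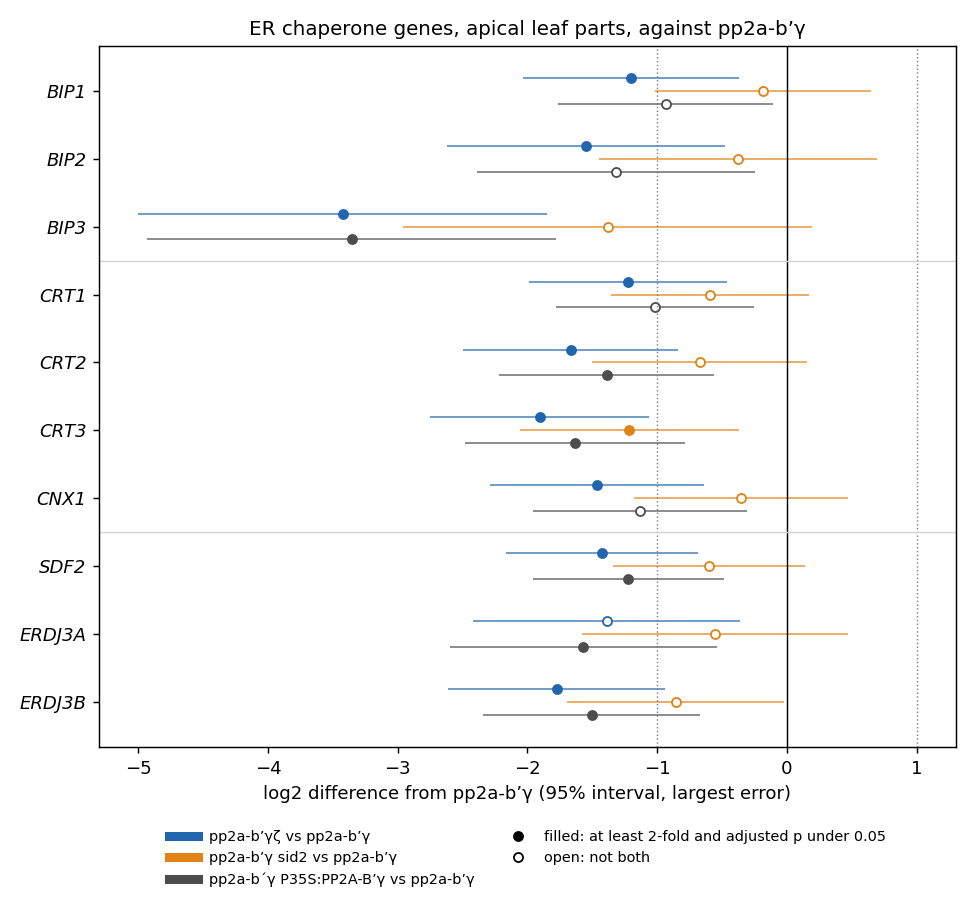
Differences of log2 fold changes from pp2a-b’γ in apical parts (x axis) for the 10 genes (rows), with 95% intervals under the largest error and dotted lines at 2-fold. Points of pp2a-b’γζ and the complementation line lie at or beyond -0.93, and those of pp2a-b’γ sid2 lie between -1.38 and -0.18.

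A comparison of both double mutants with each other was added after their values had been seen. All 10 genes were higher in pp2a-b’γ sid2 than in pp2a-b’γζ, where 9488 of the 18231 listed genes were. Their differences ran from 0.63 for CRT1 to 2.04 for BIP3, with a median of 0.96. At least 2-fold higher were 4 genes, where 3.41% of listed genes were: BIP3, BIP2 at 1.17, CNX1 at 1.11 and BIP1 at 1.02. None passed the largest-error test, where 0.368% of listed genes did. The intervals of BIP1, BIP2, BIP3, CRT2, CNX1, SDF2 and ERDJ3B lay above 0 before adjustment, and those of CRT1, CRT3 and ERDJ3A included it.

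No basal fold change was used here, but the p-values limit what it can have been. The authors' corrected interaction p, which tests whether line differences depend on leaf part, was under 0.05 for 1 of the 10 genes, CRT1 (p = 0.0433 in the authors' deposited table), against 42.4% of listed genes. For the other 9 it lay between 0.165 for SDF2 and 0.954 for BIP3. The corrected line p was between 1.12e-11 and 8.56e-07 for the 10. From these values the basal log2 fold change of pp2a-b’γ against WT was bounded at 2.83 to 4.76 for BIP3, 1.45 to 3.50 for ERDJ3A and 1.36 to 4.25 for CRT3. It was bounded at 1.04 to 2.98 for BIP2, 0.73 to 3.15 for ERDJ3B, 0.69 to 2.81 for CNX1, 0.66 to 3.04 for CRT2, 0.58 to 2.75 for BIP1, 0.41 to 2.83 for SDF2 and 0.05 to 2.91 for CRT1. These ranges are limits from arithmetic and not confidence intervals. All 10 lie above 0, so under the assumed layout the group mean of each gene was higher in pp2a-b’γ than in WT in the asymptomatic parts too. The median lower limit was 0.71 over the 10 genes and -0.83 over all listed genes. The share of listed genes with a range above 0 was not counted.

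With the smallest basal contrast that the p-values allow, BIP3, CRT3 and ERDJ3A passed at an adjusted p under 0.05, at 0.00409, 0.000363 and 0.00784 (Benjamini-Hochberg over the 25801 genes, the same layout as the largest-error test), where 3.58% of listed genes did. In basal pp2a-b’γζ and pp2a-b’γ sid2 0 of the 10 passed, where 0.943% and 2.50% of listed genes did. The ranges of all 10 genes included 0 in pp2a-b’γζ, and in pp2a-b’γ sid2 those of BIP1, BIP2, BIP3, CNX1 and ERDJ3A lay above 0, with BIP3 bounded at 1.42 to 3.35. In pp2a-b’γ sid2 the median lower limit was 0.13 over the 10 genes and -1.35 over all listed genes. The share of listed genes with a range above 0 was not counted there either. For the disrupted transcript B’ζ, the value in basal pp2a-b’γζ was bounded at -3.13 to -2.13. SAG12, a protease gene of senescing leaves that rose by 13.02 in apical pp2a-b’γ, was not bounded to one side in the basal parts, with a range of -16.0 to 21.6. Over all lines, leaf part had a corrected p under 0.05 for 7 of the 10 genes in the authors' deposited table, against 54.1% of listed genes, with no direction given. BIP1, BIP2 and CRT1 were the 3 genes above it, at 0.151, 0.0511 and 0.0948.

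**Figure D4:**
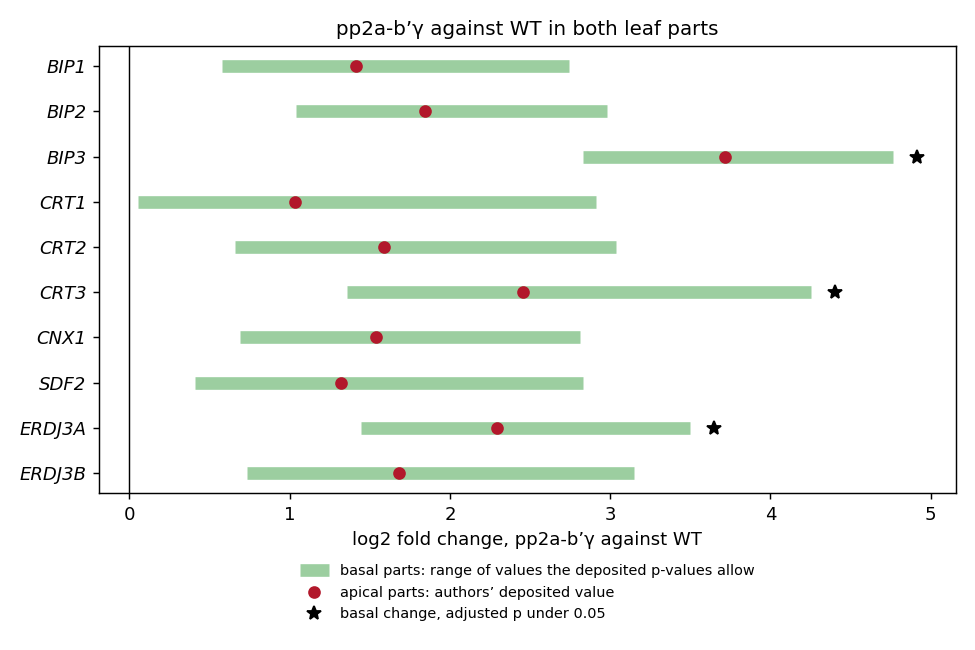
Apical log2 fold change of pp2a-b’γ against WT as deposited (points) and the range of basal values that the deposited p-values allow (bars), for the 10 genes (rows); stars mark a basal adjusted p under 0.05. All bars lie right of 0, from 0.05 at the lower end of CRT1 to 4.76 at the upper end of BIP3.

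The rest of the folding machinery was read from lists of genes of known role. On 5 other ER lists, 46 of 49 genes were listed. In pp2a-b’γ 14 of the 46 were at least 2-fold higher than in WT, where 17.0% of listed genes were. Of the 46, 12 rose, where 7.92% of listed genes did, and their median was 0.75. Disulfide isomerases and ER oxidases, which form and rearrange disulfide bonds, had 5 of 9 that rose and a median of 1.11: PDIL2-2 by 2.36, PDIL1-2 by 2.05, the oxidase ERO1 by 1.60, PDIL1-3 by 1.32 and PDIL1-1 by 1.11. Of the other ER chaperones and glycan quality control genes 3 of 9 rose, with a median of 0.84; these were the HSP70 relative HSP70-17 by 1.60, the ER HSP90 gene SHD by 1.54 and the BiP co-chaperone P58IPK by 1.44. The second calnexin, CNX2, stood at 0.53, and EBS1, the glucosyltransferase that returns unfolded glycoproteins to calnexin and calreticulin, at 1.0, without passing.

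Sensors and factors of the unfolded protein response had a median of 0.73, and 2 of 11 rose: TIN1, an ER stress-induced gene, by 1.80, and the cell death suppressor BI-1 by 1.17. The factor NAC103 stood at 1.16 without passing, the RNA splicing sensor IRE1A at 0.85, BZIP28 at 0.73 and BZIP60, whose transcript IRE1 splices, at 0.54. BZIP60 had its highest value in pp2a-b’γζ, at 1.10, where NAC103 stood at 1.04 and the 10 chaperone genes had their median of 0.14; neither passed. TIN1 rose in pp2a-b’γ sid2 as well, by 1.95. Among ER-associated degradation genes, 1 of 7 rose, the ubiquitin ligase gene HRD1B by 1.46, with a median of 0.62; OS9, CDC48A and SEL1L stood at 0.67, 0.78 and 0.61. Translocon and coat genes had 1 of 10 that rose, the translocon subunit gene SEC61B2 (AT3G60540) by 2.77, with a median of 0.79. The translocon subunit genes SEC61G1 and SEC61A1 stood at 1.03 and 0.996. For lists of 7 and 10 genes, a count of 1 is close to the 7.92% of all listed genes that rose in pp2a-b’γ.

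In the other lines the medians of these 46 genes were 0.09 in pp2a-b’γζ, 0.36 in pp2a-b’γ sid2 and 0.18 in the complementation line, and 0, 2 and 0 of them rose. The shares of all listed genes that rose in these lines were 1.17%, 2.51% and 0.285%. The 2 in pp2a-b’γ sid2 were TIN1 and SHD, at 1.95 and 1.14. Relative to pp2a-b’γ, 8 fell in pp2a-b’γζ, 3 in pp2a-b’γ sid2 and 9 in the complementation line. The shares of all listed genes that fell were 6.20%, 7.49% and 6.67%, and 3 of 46 in pp2a-b’γ sid2 is close to its share. The 3 in pp2a-b’γ sid2 were PDIL1-2, which fell by 1.34, BI-1, which fell by 1.15, and ERO1, which fell by 1.02. Of the 4 receptor kinase genes whose proteins the ER chaperones are known to handle, 0 rose in pp2a-b’γ by the largest-error test: EFR stood at 0.95, BAK1 at 0.60, FLS2 at -0.16 and BRI1 at -0.23. EFR was lower in pp2a-b’γ sid2 than in pp2a-b’γ and fell by 1.59, with a value of -0.64 against WT.

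HSP70 genes of other compartments are relatives of BiP. In pp2a-b’γ the median of 10 such genes was -0.14, and 1 rose, the cytosolic HSC70-2 by 3.03, where 7.92% of listed genes rose. HSC70-2 was above WT in every line: it rose by 3.10 in pp2a-b’γζ and stood at 2.47 in pp2a-b’γ sid2 and 2.92 in the complementation line without passing. The cytosolic genes HSC70-3 and HSP70-4 had values of -0.04 and -0.55 in pp2a-b’γ. Both rose against WT in the other lines, HSC70-3 by 1.38 in pp2a-b’γζ, 1.19 in pp2a-b’γ sid2 and 1.43 in the complementation line, and HSP70-4 by 1.07, 1.09 and 1.24 in the same lines. Against pp2a-b’γ, HSC70-3 rose by 1.42, 1.23 and 1.48 and HSP70-4 by 1.63, 1.64 and 1.79 in pp2a-b’γζ, pp2a-b’γ sid2 and the complementation line. For both genes the direction against pp2a-b’γ is the opposite of that of BIP1, BIP2 and BIP3, whose differences were negative in the same 3 comparisons, except that of BIP1 in pp2a-b’γ sid2 when centred on reference genes, as given above. The plastid genes cpHSC70-1 and cpHSC70-2 stood at -0.38 and -0.20 in pp2a-b’γ, and the mitochondrial mtHSC70-1 and mtHSC70-2 at -0.14 and -0.02.

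**Figure D5:**
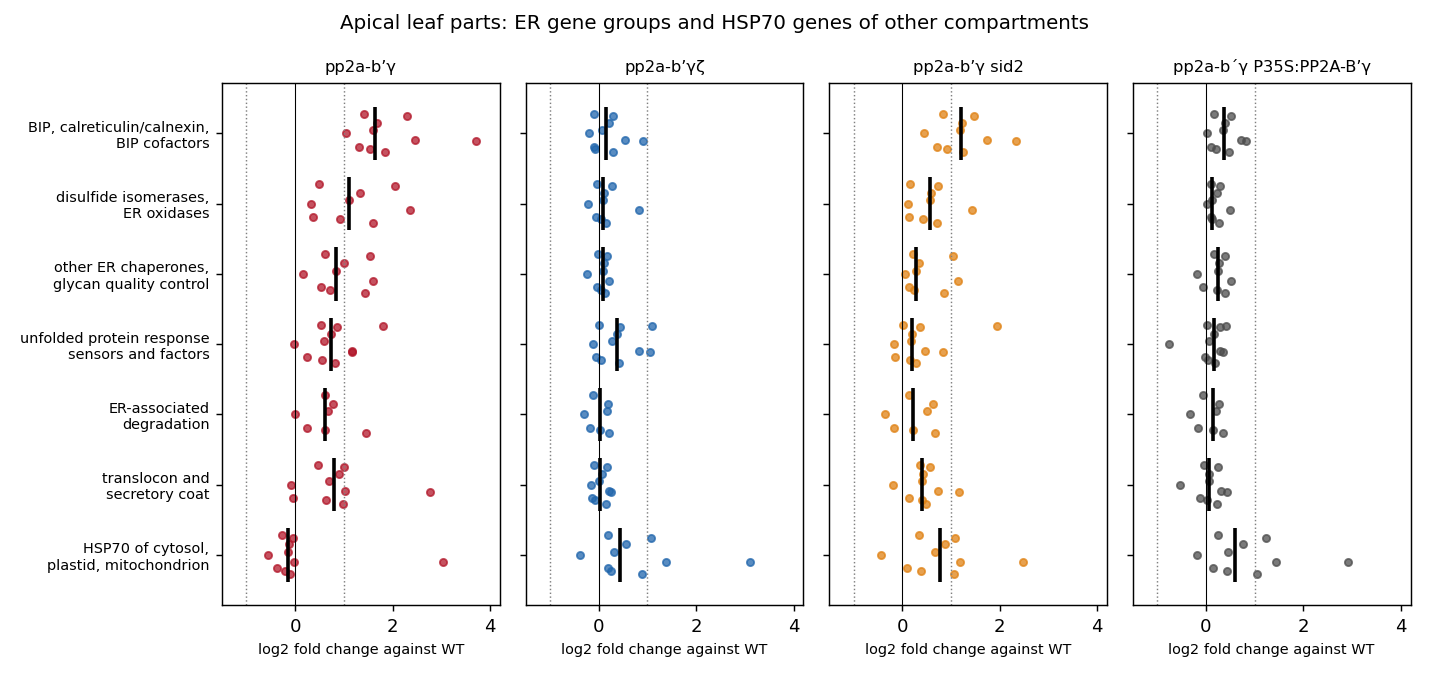
Log2 fold change against WT in apical parts (x axis) for every listed gene of 7 groups (rows; points are genes, black bars group medians, dotted lines 2-fold), in 1 panel per line. The 10 chaperone genes have medians of 1.64, 0.14, 1.21 and 0.38 from the left panel to the right one, and HSP70 genes of other compartments -0.14, 0.43, 0.78 and 0.60.

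The state of salicylic acid defence in the same libraries was as follows. ICS1 rose by 3.18 in pp2a-b’γ and stood at 0.61, -0.97 and 0.32 in pp2a-b’γζ, pp2a-b’γ sid2 and the complementation line. PR1, a marker of salicylic acid defence, rose by 8.43 in pp2a-b’γ and stood at 0.80, -4.32 and -0.12 in the same 3 lines. TBF1, whose protein binds the TL1 element, rose by 3.81 in pp2a-b’γ and stood at 1.23, 1.20 and 0.95, and the coactivator gene NPR1 stood at 0.86 in pp2a-b’γ and between -0.11 and -0.06 in the other 3. Relative to pp2a-b’γ, PR1 fell by 12.75 and TBF1 by 2.60 in pp2a-b’γ sid2, in which the median difference of the chaperone genes was -0.60. For BIP1 and BIP2 the intervals of that difference, given above, include a 2-fold decline. Whether the chaperone genes depend on salicylic acid or on TBF1 was not tested.

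For each of the 10 genes, the 3 listed genes with the nearest profile over the 4 deposited fold changes were found by Euclidean distance on the log2 scale, which is a likeness over 4 values that share the WT pools. The 30 places held 28 different genes, and 7 places went to genes of the ER lists or to members. Such genes were 56 of the 18231 listed genes. CNX1 and SHD were 0.06 apart, CNX1 and BIP1 0.21, CNX1 and P58IPK 0.20, and CRT2 and ERDJ3B 0.13. The nearest gene to CRT2 was AT1G14360, which the reference names UDP-galactose transporter 3, at 0.08, and the same gene lay 0.14 from ERDJ3B. CRT3 lay nearest to AT4G27860, a vacuolar iron transporter-like gene, at 0.13, and CRT1 to AT5G28050, a cytidine or deoxycytidylate deaminase-like gene, at 0.12. BIP3 had no close neighbour: its nearest gene, AT3G23530, was 0.60 away. The nearest genes of ERDJ3A, AT2G34810, CPK15 and AT5G13370, were 0.35 to 0.46 away and none was a member.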

How the data were processed

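RNA from apical and basal pools was sequenced as polyA libraries; samples were grouped by the line and leaf part in their labels. Per the submitters' processing notes, bcl2fastq and DESeq were used with the build TAIR10; versions are not given in the sources used here. The authors' deposited table holds log2 fold changes of apical parts in 4 columns and p-values, corrected and uncorrected, in 6. Its header names no log base; base 2 follows from steps of 0.2 at the floor. Each deposited p-value covers 1 gene and all lines at once. A corrected genotype p under 0.05 holds for every gene in the table, so shares are of listed genes. With depth unknown, counting intervals were not computed.

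F values (4 and 40 degrees of freedom) were computed from the uncorrected genotype and interaction p-values and, with the 4 fold changes, bound each gene's residual variance and its basal fold changes. Line means were taken to lie within 20 log2 units. The layout was checked on 159 genes at exactly 0 in 3 lines, of which 69 had genotype and interaction F values equal within 2%, as when 1 group alone departs. Both F values have the same degrees of freedom, so their equality alone does not test the 40 residual ones. The leaf part F was equal too for 66 genes. The remaining genes of the 159 were not examined. The layout assumes equal variance in all groups and treats the paired apical and basal pools as independent. It also takes the p-values to be on the same scale as the fold changes. The scripts were tested on simulated data. Contrast p-values were adjusted by Benjamini-Hochberg over 25801 genes, the number implied by the authors' correction. Differences between lines were differences of deposited values.

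The members and gene lists were chosen with earlier results of these data known; of 87 genes on the 10 other lists, 82 were listed, and HRD1A, SEC61G3, SEC31A, SAND and GL1 were not. The 7 listed reference genes had medians of 0.19 in pp2a-b’γ, -0.08 in pp2a-b’γζ, -0.01 in pp2a-b’γ sid2 and -0.04 in the complementation line; the 3 with the largest values in pp2a-b’γ were GAPC1 at 0.96, UBQ10 at 0.62 and YLS8 at 0.39. Named genes are all members, the 3 largest changes of each list in pp2a-b’γ, list members described by role, and some of the 3 nearest genes of each member. The basal bounds and the comparison between both double mutants were added after values had been seen. Promoters and coding sequences came from the RefSeq TAIR10.1 genome and annotation, in which all 10 genes were matched by identifier. Alternatives were no size limit, a 1.5-fold limit, the size limit alone, the equal-parts variance (basal differences as large as apical ones), adjustment over listed genes only, a corrected genotype p under 0.01, and centring on all listed or on reference genes. Analyses used Python 3.11.15, numpy 2.4.6, pandas 2.3.3, scipy 1.17.1, matplotlib 3.10.9 and Biopython 1.88.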

Additional observations from a re-analysis of the deposited data

Results flagged for a closer look

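For 26 of the 65 named genes the authors' corrected interaction p was under 0.05, so that differences between lines depended on the leaf part; 42.4% of all listed genes met the same limit. Among the chaperone genes this was CRT1, at 0.0433. Named genes of the other ER lists under the limit were EBS1 at 0.0330, BZIP28 at 0.000182, IRE1A at 0.00167, BI-1 at 0.000654, HRD1B at 0.0221, SEL1L at 0.0329 and CDC48A at 1.07e-08. Of the receptor kinase genes, EFR had a p of 0.000152 and BAK1 of 0.00732, and of the HSP70 genes of other compartments, HSC70-2 had 0.0124 and the plastid genes cpHSC70-1 and cpHSC70-2 had 6.41e-06 and 0.0307. Of the defence and senescence genes, SAG12 had 5.54e-24, TBF1 1.89e-06 and NPR1 0.000975. The leaf cell type markers LHCB1.3, CA1, TGG1 and KAT1 had 0.000242, 6.92e-05, 0.00954 and 0.00323, and the reference genes UBQ10, GAPC1 and YLS8 had 0.0498, 0.0418 and 0.0389. Among the genes named for their likeness to a chaperone gene, AT5G28050 had 0.000193, AT3G23530 0.00233 and CPK15 0.0332. These are the authors' tests; fold changes of basal parts were not used here, so the direction of each dependence is not given.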

How the results depend on the processing

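The 9 chaperone genes that rose in pp2a-b’γ, and the 9 and 6 that fell in pp2a-b’γζ and in the complementation line relative to it, stayed within 1.5 times these counts under every alternative. The sign changed for 2 values that had not passed, both when centred on reference genes: CRT2 in pp2a-b’γζ against WT, from -0.08 to 0.0047, and BIP1 in pp2a-b’γ sid2 against pp2a-b’γ, from -0.18 to 0.03. The 1 gene that rose in pp2a-b’γ sid2 became 6 with the size limit alone, 6 with the equal-parts variance and 4 when adjusted over listed genes only. The 1 gene that fell in pp2a-b’γ sid2 relative to pp2a-b’γ became 2 with the size limit alone and 0 when centred on reference genes. At a corrected p under 0.01, the interaction count of 1 became 0 and the leaf part count of 7 became 4. Centring on reference genes ended 6 calls of single genes, those of BIP1, BIP2 and CRT1 in pp2a-b’γζ, CRT3 in pp2a-b’γ sid2, and SDF2 and ERDJ3A in the complementation line, all relative to pp2a-b’γ. For these the cause was not tested. Leaving out each replicate was not run, because the table holds no values per library. No paired analysis was possible because the table holds no values per library. Unknown depth limits what can be said of low genes, and the largest-error test can miss changes found in apical parts alone.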
